A study of Mus musculus with 36 samples.

Results

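Fatty acid oxidation and PPAR-alpha genes are described here as a list of 39 named genes, looked up in the count table by symbol. Of the 39 genes, 38 were in the table, which held 15730 genes, and all 38 passed the low-count filter that kept 15726 genes for testing. The remaining gene, Etfb, was not analysed here. The list runs from the carnitine shuttle through the enzymes of mitochondrial and peroxisomal oxidation to uptake, storage and signalling genes, and its members were named by symbol with no threshold on a measured value, by a choice made with earlier results of these data known.

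RNA-seq libraries were made from the kidney cortex of male ApoE-/- mice on a C57BL/6 background, a strain that lacks apolipoprotein E and is prone to atherosclerosis. Diabetic mice had received streptozotocin, a toxin of pancreatic beta cells, as 5 daily injections of 55 mg/kg from 6 weeks of age. The 3 diabetic groups were given ethanol vehicle (0.1%), lipoxin A4 (LXA4, 5 µg/kg) or benzo-LXA4 (1.7 µg/kg), and the 3 nondiabetic groups were given the same 3 agents. LXA4 is a lipid mediator of the resolution of inflammation, and benzo-LXA4 is a synthetic analog of it. Injections were given 2 times a week, and the labels describe an intervention design with dosing in weeks 10 to 16 of a study of 16 weeks. Each of the 6 groups had 6 libraries. The labels do not say that replicates were separate mice, so each p-value measures the spread between these libraries, which may be technical. All mice carried the ApoE deletion, and Apoe ran from 1.62 to 3.42 CPM (counts scaled to a common library size) over the 36 libraries.

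Fatty acids enter beta-oxidation as acyl-CoA esters, which the carnitine shuttle carries across the mitochondrial membranes and which dehydrogenases, hydratases and thiolases then shorten in repeated rounds. Peroxisomes run a parallel pathway for very long and branched chains, and microsomal cytochromes of the CYP4A family start oxidation from the far end of the chain. The nuclear receptor PPAR-alpha, which binds fatty acids and pairs with the retinoid X receptor, drives many of these genes in liver and kidney. The proximal tubule, the main cell type of the cortex, relies on fatty acid oxidation for its energy.

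Promoter sequences are shown for Slc27a2, Acadm and Ehhadh, which had the highest levels of the 38 genes per length of transcript and were lower in diabetic cortex in the comparisons described below. Each window runs from 250 bases before to 50 bases after the RefSeq start site in the GRCm38.p6 build, and is printed in the direction of transcription. The windows lie at chr2:126552774-126553073 on the plus strand, chr3:153944594-153944893 on the minus strand and chr16:21787785-21788084 on the minus strand. Capitals mark a match to AGGTCA, the half-site of nuclear receptors such as PPAR-alpha, or to its reverse complement.
Slc27a2: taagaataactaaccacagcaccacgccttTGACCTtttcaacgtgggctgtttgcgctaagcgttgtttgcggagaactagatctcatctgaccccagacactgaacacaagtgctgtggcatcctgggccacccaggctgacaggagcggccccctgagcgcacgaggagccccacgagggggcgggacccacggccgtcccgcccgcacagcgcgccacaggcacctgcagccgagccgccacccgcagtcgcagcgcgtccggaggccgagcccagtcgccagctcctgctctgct
Acadm: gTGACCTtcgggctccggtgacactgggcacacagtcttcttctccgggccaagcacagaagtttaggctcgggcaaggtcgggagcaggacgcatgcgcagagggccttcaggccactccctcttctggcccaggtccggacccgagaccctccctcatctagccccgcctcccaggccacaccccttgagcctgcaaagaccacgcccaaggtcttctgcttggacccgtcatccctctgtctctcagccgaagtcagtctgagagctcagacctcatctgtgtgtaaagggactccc
Ehhadh: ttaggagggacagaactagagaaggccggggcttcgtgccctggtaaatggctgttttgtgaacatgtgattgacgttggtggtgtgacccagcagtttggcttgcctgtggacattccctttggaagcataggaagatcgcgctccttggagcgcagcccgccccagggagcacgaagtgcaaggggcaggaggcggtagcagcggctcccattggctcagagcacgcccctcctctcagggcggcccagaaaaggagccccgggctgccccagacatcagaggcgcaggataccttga

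Slc27a2 held 1 half-site at -220 to -215 from its start site and Acadm held 1 at -249 to -244, both on the strand opposite to transcription. The Ehhadh window held none. Of the 38 genes, 30 had a RefSeq window, and 7 of these 30 (23.3%) held AGGTCA on either strand, namely Cpt1a, Acadm, Acadvl, Echs1, Acot12, Slc27a2 and Plin2. The share over all 32851 windows of this length was 16.3%. The direct repeat AGGTCANAGGTCA was in 0 of the 30 windows and in 0.0396% of all windows, and the looser repeat AGGNCANAGGNCA was in 0 of the 30 and in 0.381% of all. These are matches of letters, which overlap in part because each repeat holds half-sites, and they do not show binding.

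Sequencing depth spanned 8896193 to 43305005 counts a library. In 2 libraries a larger share of counts fell on Gm26917 and Gm42418, transcripts that hold ribosomal sequence, with 41.7% in diabetic LXA4 replicate 6 and 10.5% in nondiabetic vehicle replicate 3, against 1.49% to 3.06% in the other 34. Mitochondrial transcripts made up 1.15% and 5.25% of counts in those libraries, against 9.71% to 14.9% in the others. Apart from these, nondiabetic benzo-LXA4 replicate 1 held adipocyte transcripts. The 8 adipocyte markers summed to 866 CPM there and to at most 89.4 CPM in any other library, with 37.4 CPM of Adipoq against at most 2.55 CPM elsewhere. Counts of genes called are therefore also given without these 3 libraries, a choice made after seeing the data. Shares over all genes are not given for the fits that leave out libraries. A gain or loss of calls there is therefore not set here against a general rise or fall in calls.

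Diabetic cortex had lower RNA levels than nondiabetic cortex for 18 of the 38 fatty acid oxidation genes in the average over the 3 treatments, and no gene of the list was called higher. A gene was called when its Benjamini-Hochberg adjusted p from the quasi-likelihood test of edgeR, over all 15726 genes, was under 0.05. Among vehicle mice 6 of 38 genes were called lower, namely Slc27a2, Acaa1b, Ehhadh, Cpt2, Acadm and Hadh, and 0 higher, where 2.16% of all genes were called lower and 3.44% higher. Among LXA4 mice 11 of 38 were called lower and 0 higher, where 12.3% of all genes were called lower and 15.4% higher. Among benzo-LXA4 mice 1 of 38, Acadm, was called lower and 0 higher, where 1.25% of all genes were called lower and 2.81% higher.

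Averaged over the 3 treatments, 18 of 38 genes were called lower and 0 higher, where 16.6% of all genes were called lower and 18.8% higher. The median log2 difference of the 38 genes, diabetic minus nondiabetic, was -0.24 with vehicle, -0.16 with LXA4, -0.24 with benzo-LXA4 and -0.19 in the average. Over all genes tested the corresponding medians were -0.01, 0.05, -0.01 and 0.01. These 3 comparisons share no library. In all 3 of them, 25 of the 38 genes (65.8%) lay below 0, and 0 lay above 0. Of all genes tested, 26.6% lay below 0 in all 3 and 28.2% above 0 in all 3. By unadjusted p under 0.05, 18, 13, 13 and 25 genes of the list passed with vehicle, with LXA4, with benzo-LXA4 and in the average. Of all 15726 genes tested, 3313, 6375, 2704 and 7032 passed in the same order. With LXA4 the list passed at a lower rate than all genes, and in the other comparisons at a higher rate.

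**Figure D1:**
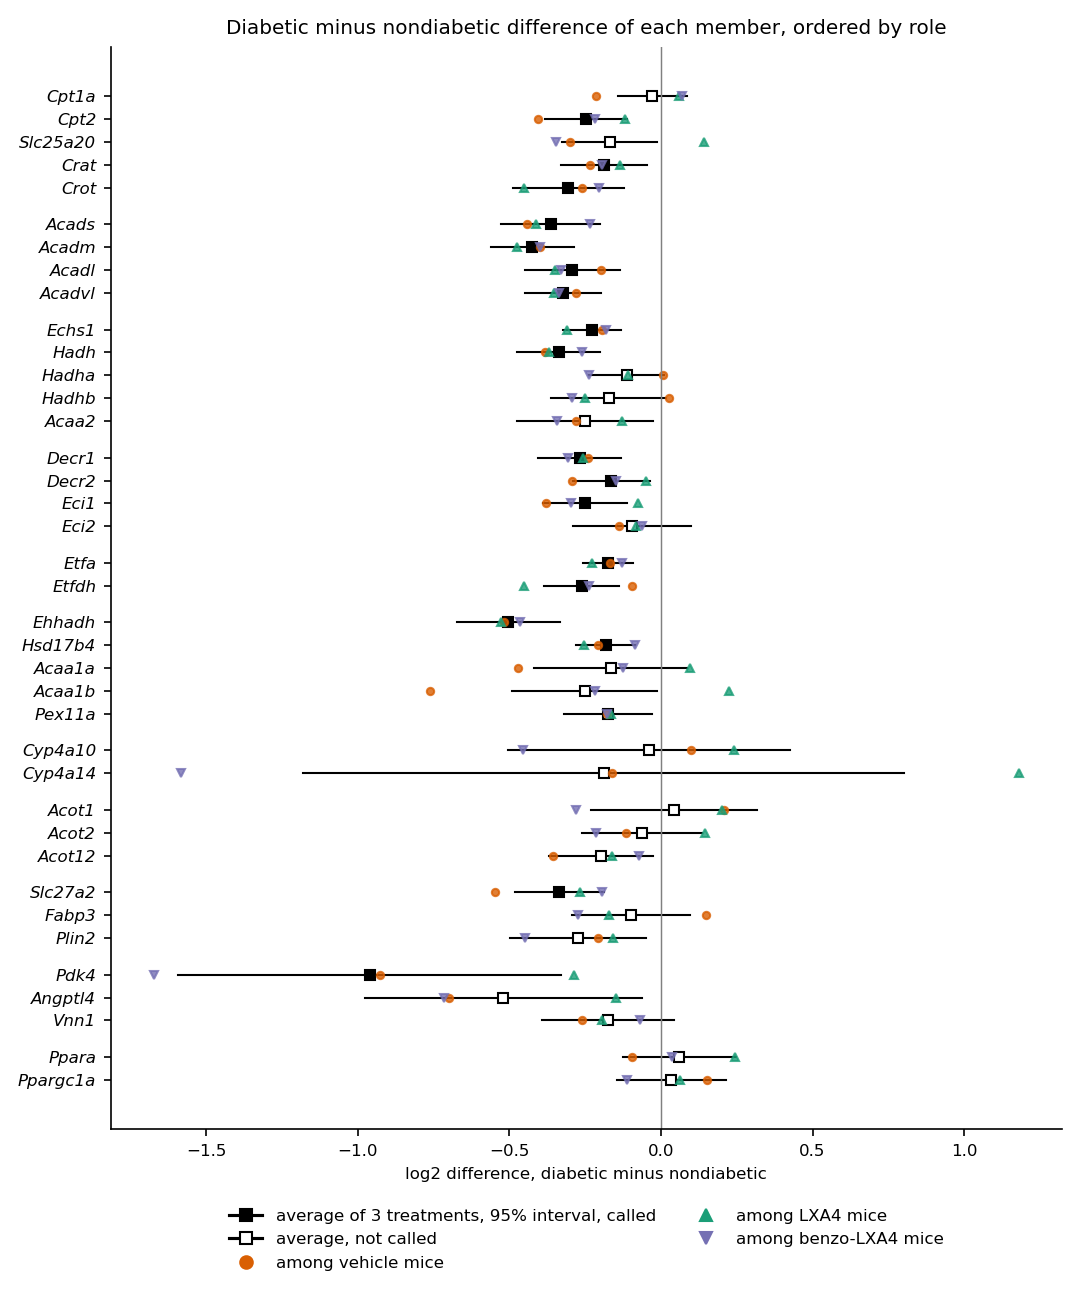
Log2 difference of each of the 38 genes, diabetic minus nondiabetic, with the 11 role groups separated by gaps. Squares are averages over the 3 treatments with 95% intervals (filled where called), and coloured symbols are the differences among vehicle, LXA4 and benzo-LXA4 mice; 35 of 38 averages lie below 0 and 18 are filled.

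In the carnitine shuttle, 3 of 5 genes were called lower in the average over treatments (all genes: 16.6%), namely Cpt2, Crat and Crot. Cpt2 (carnitine palmitoyltransferase 2, chr4:107903981-107923610 in GRCm38) re-forms acyl-CoA inside the mitochondrion. Cpt2 had 77.5 to 94.8 CPM (median 90.1) in diabetic vehicle libraries, against 84.6 to 142 CPM (median 117) in nondiabetic vehicle libraries. Cpt2 under LXA4 had 75.7 to 123 CPM (median 100.3) in diabetic libraries, against 98.3 to 126 CPM (median 105) in nondiabetic libraries. Cpt2 under benzo-LXA4 had 75.6 to 97.4 CPM (median 87.8) in diabetic libraries, against 76.7 to 123 CPM (median 98.6) in nondiabetic libraries. The diabetic and nondiabetic ranges overlapped in each pair, and all 6 diabetic vehicle libraries lay below the nondiabetic vehicle mean. The share of all genes whose ranges separate was not computed. A separation named below describes that gene only and is no result about the list. The log2 difference of Cpt2 was -0.40 (SE 0.11, edgeR adjusted p = 0.0303) with vehicle and -0.25 (SE 0.07, edgeR adjusted p = 0.00407) in the average. With LXA4 it was -0.12 (edgeR adjusted p = 0.460) and with benzo-LXA4 -0.22 (edgeR adjusted p = 0.329).

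Crot (carnitine octanoyltransferase) prepares chains shortened in the peroxisome for export. Crot had 176 to 358 CPM (median 263) in diabetic vehicle libraries, against 251 to 360.2 CPM (median 338) in nondiabetic vehicle libraries. Crot under LXA4 had 189 to 337 CPM (median 254) in diabetic libraries, against 273 to 420.1 CPM (median 344) in nondiabetic libraries. Crot under benzo-LXA4 had 235 to 339 CPM (median 256) in diabetic libraries, against 205 to 390.2 CPM (median 320.5) in nondiabetic libraries. These ranges also overlapped in every pair. The difference of Crot was -0.45 (edgeR adjusted p = 0.0313) with LXA4 and -0.30 (edgeR adjusted p = 0.00897) in the average. Crat (carnitine acetyltransferase) buffers acetyl-CoA as acetylcarnitine. Crat had 78.1 to 91.1 CPM (median 85.4) in diabetic vehicle libraries, against 83.0 to 119 CPM (median 97.0) in nondiabetic vehicle libraries. Crat under LXA4 had 61.6 to 107 CPM (median 98.5) in diabetic libraries, against 87.7 to 112 CPM (median 98.1) in nondiabetic libraries. Crat under benzo-LXA4 had 85.4 to 92.2 CPM (median 88.8) in diabetic libraries, against 86.2 to 151 CPM (median 92.1) in nondiabetic libraries. The highest Crat value was in nondiabetic benzo-LXA4 replicate 1, the library with adipocyte transcripts, and the other ranges overlapped. The average difference of Crat was -0.19 (edgeR adjusted p = 0.0339), and without the 3 libraries above the adjusted p of Crat was 0.0653. Cpt1a, which commits long chains to mitochondrial import, averaged -0.03 (edgeR adjusted p = 0.730) with a 95% interval of -0.14 to 0.08, and Slc25a20, the translocase for acylcarnitine, averaged -0.17 (edgeR adjusted p = 0.0858).

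All 4 acyl-CoA dehydrogenases, which catalyse the opening step of each round, were called lower among LXA4 mice and in the average. The shares of all genes called lower there were 12.3% and 16.6%. Acadm (medium chains, chr3:153922357-153944632) was the only gene of the 38 called in each of the 4 comparisons with all libraries in the fit. Its call among vehicle mice was lost without the 2 libraries rich in ribosomal sequence (-0.28, edgeR adjusted p = 0.0854) and without the 3 libraries that stand apart (-0.28, edgeR adjusted p = 0.0867). Acadm had 297 to 448 CPM (median 384) in diabetic vehicle libraries, against 380.2 to 697 CPM (median 496) in nondiabetic vehicle libraries. Acadm under LXA4 had 301 to 440.3 CPM (median 350.3) in diabetic libraries, against 456 to 597 CPM (median 505) in nondiabetic libraries. Acadm under benzo-LXA4 had 332 to 365 CPM (median 358) in diabetic libraries, against 408 to 535 CPM (median 449) in nondiabetic libraries. With LXA4 and with benzo-LXA4 every diabetic library lay below every nondiabetic one, while the vehicle ranges overlapped. The log2 difference of Acadm was -0.40 (SE 0.12, edgeR adjusted p = 0.0362) with vehicle, -0.48 (SE 0.12, edgeR adjusted p = 0.00346) with LXA4 and -0.40 (SE 0.12, edgeR adjusted p = 0.0426) with benzo-LXA4. In the average it was -0.42 (SE 0.07, edgeR adjusted p = 1.3e-05).

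Acadvl (very long chains) overlaps the neighbouring gene Dvl2 over 26.9% of its 50-base words. Acadvl had 147 to 165 CPM (median 151) in diabetic vehicle libraries, against 142 to 248 CPM (median 181) in nondiabetic vehicle libraries. Acadvl under LXA4 had 117 to 168 CPM (median 144) in diabetic libraries, against 173 to 204 CPM (median 179) in nondiabetic libraries. Acadvl under benzo-LXA4 had 134 to 155 CPM (median 147) in diabetic libraries, against 161 to 243 CPM (median 175) in nondiabetic libraries. The diabetic libraries lay below all nondiabetic libraries with LXA4 and with benzo-LXA4. The average difference of Acadvl was -0.32 (SE 0.06, edgeR adjusted p = 0.000130). Acads handles short chains. Acads had 73.1 to 116 CPM (median 83.6) in diabetic vehicle libraries, against 83.0 to 185 CPM (median 118) in nondiabetic vehicle libraries. Acads under LXA4 had 68.5 to 105 CPM (median 94.2) in diabetic libraries, against 109 to 141 CPM (median 119) in nondiabetic libraries. Acads under benzo-LXA4 had 82.7 to 98.6 CPM (median 92.1) in diabetic libraries, against 79.3 to 122 CPM (median 111) in nondiabetic libraries. The LXA4 ranges of Acads separated and the other pairs overlapped. Acads averaged -0.36 (SE 0.08, edgeR adjusted p = 0.000692), with -0.44 (edgeR adjusted p = 0.0525) among vehicle mice.

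Acadl handles long chains. Acadl had 163 to 194 CPM (median 169) in diabetic vehicle libraries, against 168 to 236 CPM (median 189.6) in nondiabetic vehicle libraries. Acadl under LXA4 had 75.6 to 202 CPM (median 178) in diabetic libraries, against 189 to 231 CPM (median 208) in nondiabetic libraries. Acadl under benzo-LXA4 had 157 to 172 CPM (median 161) in diabetic libraries, against 171 to 263 CPM (median 201) in nondiabetic libraries. The lowest of these 36 values was in diabetic LXA4 replicate 6 and the highest in nondiabetic benzo-LXA4 replicate 1, both named above as libraries that stand apart. The average difference of Acadl was -0.29 (SE 0.08, edgeR adjusted p = 0.00345). Without diabetic LXA4 replicate 6 and nondiabetic vehicle replicate 3, the difference of Acadl among LXA4 mice had an adjusted p of 0.0625 and was not called.

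Among the enzymes that complete the mitochondrial round, Echs1 and Hadh were called lower in the average (all genes: 16.6%). Hadha, Hadhb and Acaa2 were not called. Hadh (3-hydroxyacyl-CoA dehydrogenase, chr3:131233419-131272101) oxidises the hydroxyacyl intermediate. Hadh had 204 to 298 CPM (median 230.3) in diabetic vehicle libraries, against 221 to 394 CPM (median 333) in nondiabetic vehicle libraries. Hadh under LXA4 had 197 to 288 CPM (median 252) in diabetic libraries, against 295 to 354 CPM (median 319) in nondiabetic libraries. Hadh under benzo-LXA4 had 209 to 266 CPM (median 243) in diabetic libraries, against 240.4 to 328 CPM (median 281) in nondiabetic libraries. The LXA4 ranges separated, and the vehicle and benzo-LXA4 ranges overlapped. The log2 difference of Hadh was -0.38 (SE 0.12, edgeR adjusted p = 0.0476) with vehicle, -0.37 (edgeR adjusted p = 0.0181) with LXA4 and -0.34 (SE 0.07, edgeR adjusted p = 0.000250) in the average.

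Echs1 (short-chain enoyl-CoA hydratase) adds water to the double bond. Echs1 had 97.2 to 123 CPM (median 105) in diabetic vehicle libraries, against 103 to 162 CPM (median 120.0) in nondiabetic vehicle libraries. Echs1 under LXA4 had 88.7 to 103 CPM (median 99.9) in diabetic libraries, against 116 to 130.2 CPM (median 119) in nondiabetic libraries. Echs1 under benzo-LXA4 had 93.0 to 108 CPM (median 102) in diabetic libraries, against 104 to 132 CPM (median 114) in nondiabetic libraries. Every diabetic LXA4 library lay below every nondiabetic LXA4 library, with no share over all genes to set this against, and the other pairs overlapped. Echs1 averaged -0.23 (SE 0.05, edgeR adjusted p = 0.000343). Hadha and Hadhb encode the subunits of the trifunctional protein for long chains. Their average differences were -0.11 (edgeR adjusted p = 0.144) for Hadha and -0.17 (edgeR adjusted p = 0.151) for Hadhb, with 95% intervals of -0.24 to 0.01 and -0.36 to 0.02. Acaa2, the mitochondrial thiolase, averaged -0.25 (edgeR adjusted p = 0.0752).

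Of the 4 enzymes for unsaturated chains, Decr1, Decr2 and Eci1 were called lower in the average (all genes: 16.6%). Eci2 was not called (-0.09, edgeR adjusted p = 0.471). Decr1 is the mitochondrial dienoyl-CoA reductase. Decr1 had 117 to 148 CPM (median 133) in diabetic vehicle libraries, against 119 to 198 CPM (median 148) in nondiabetic vehicle libraries. Decr1 under LXA4 had 98.0 to 171 CPM (median 141) in diabetic libraries, against 144 to 183 CPM (median 164) in nondiabetic libraries. Decr1 under benzo-LXA4 had 116 to 141 CPM (median 123) in diabetic libraries, against 131 to 193 CPM (median 149.8) in nondiabetic libraries. The ranges of Decr1 overlapped in each pair, and the average difference was -0.27 (edgeR adjusted p = 0.00247). Eci1 (enoyl-CoA isomerase 1) moves double bonds into the position that oxidation needs. Eci1 had 37.1 to 45.4 CPM (median 38.8) in diabetic vehicle libraries, against 39.8 to 62.7 CPM (median 51.9) in nondiabetic vehicle libraries. Eci1 under LXA4 had 37.0 to 53.1 CPM (median 43.6) in diabetic libraries, against 40.8 to 52.5 CPM (median 46.7) in nondiabetic libraries. Eci1 under benzo-LXA4 had 36.1 to 45.4 CPM (median 38.7) in diabetic libraries, against 36.6 to 70.0 CPM (median 46.0) in nondiabetic libraries. The highest value of Eci1 came again from nondiabetic benzo-LXA4 replicate 1. Eci1 averaged -0.25 (edgeR adjusted p = 0.00474).

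Decr2 is the peroxisomal reductase. Decr2 had 34.1 to 46.6 CPM (median 40.2) in diabetic vehicle libraries, against 41.5 to 60.0 CPM (median 46.2) in nondiabetic vehicle libraries. Decr2 under LXA4 had 34.1 to 63.0 CPM (median 43.8) in diabetic libraries, against 43.1 to 54.3 CPM (median 46.7) in nondiabetic libraries. Decr2 under benzo-LXA4 had 34.9 to 47.4 CPM (median 37.8) in diabetic libraries, against 36.6 to 49.3 CPM (median 42.3) in nondiabetic libraries. All 3 pairs of ranges overlapped for Decr2, and its average difference was -0.16 (edgeR adjusted p = 0.0418), close to the threshold. Etfa and Etfdh pass electrons from the dehydrogenases to ubiquinone, and both were called lower in the average (all genes: 16.6%). Etfa had 165 to 193 CPM (median 171) in diabetic vehicle libraries, against 165 to 246 CPM (median 197) in nondiabetic vehicle libraries. Etfa under LXA4 had 145 to 178 CPM (median 164) in diabetic libraries, against 182 to 198 CPM (median 194) in nondiabetic libraries. Etfa under benzo-LXA4 had 153 to 179 CPM (median 166) in diabetic libraries, against 171 to 199.5 CPM (median 181) in nondiabetic libraries. The LXA4 ranges of Etfa separated, and its average difference was -0.17 (edgeR adjusted p = 0.00108). Etfdh had 102 to 119.7 CPM (median 111) in diabetic vehicle libraries, against 89.3 to 148 CPM (median 113) in nondiabetic vehicle libraries. Etfdh under LXA4 had 75.3 to 112 CPM (median 97.7) in diabetic libraries, against 119.8 to 145 CPM (median 129.8) in nondiabetic libraries. Etfdh under benzo-LXA4 had 88.8 to 114 CPM (median 96.5) in diabetic libraries, against 94.1 to 148 CPM (median 116) in nondiabetic libraries. For Etfdh too the LXA4 ranges separated. Its difference was -0.45 (edgeR adjusted p = 0.00245) with LXA4, -0.10 (edgeR adjusted p = 0.651) with vehicle and -0.26 (edgeR adjusted p = 0.00119) in the average.

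**Figure D2:**
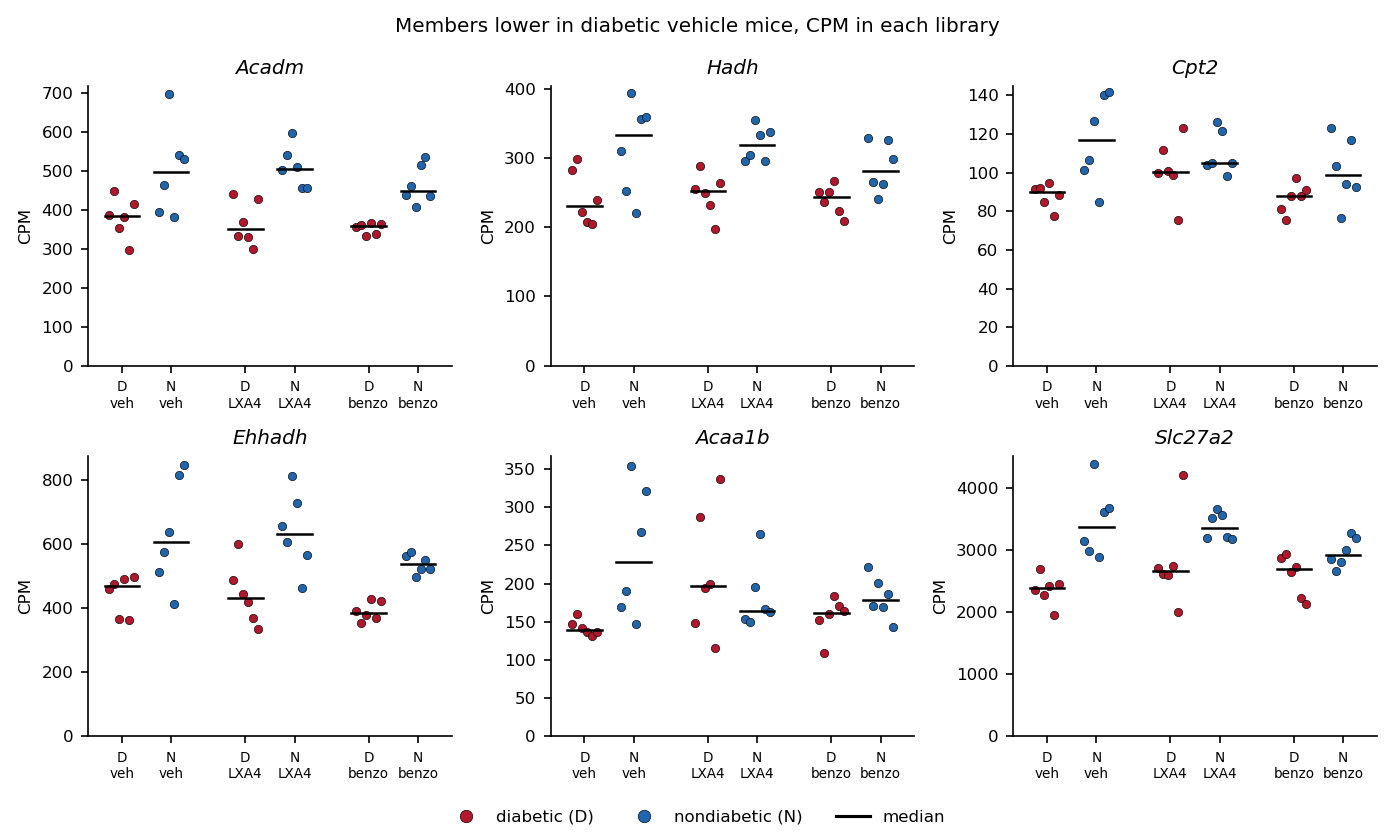
CPM in each of the 36 libraries for the 6 genes called lower among vehicle mice, with diabetic (D) beside nondiabetic (N) libraries for vehicle (veh), LXA4 and benzo-LXA4 (benzo). Points are libraries and bars are medians; Slc27a2 has no overlap between the vehicle groups, and the Acaa1b medians are 139.7 against 229 CPM with vehicle and 197 against 165 CPM with LXA4.

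Peroxisomal oxidation had 2 of 5 genes called lower in the average (all genes: 16.6%), Ehhadh and Hsd17b4. Ehhadh (chr16:21761287-21787807) encodes the bifunctional enzyme of the peroxisome and is a well-known PPAR-alpha target in liver. Ehhadh had 363 to 496 CPM (median 468) in diabetic vehicle libraries, against 412 to 846 CPM (median 605) in nondiabetic vehicle libraries. Ehhadh under LXA4 had 333 to 599.7 CPM (median 432) in diabetic libraries, against 462 to 811 CPM (median 631) in nondiabetic libraries. Ehhadh under benzo-LXA4 had 352 to 429 CPM (median 383) in diabetic libraries, against 496 to 574 CPM (median 536) in nondiabetic libraries. With benzo-LXA4 the diabetic libraries all lay below the nondiabetic ones, and with vehicle and LXA4 the ranges overlapped. The log2 difference of Ehhadh was -0.52 (SE 0.14, edgeR adjusted p = 0.0275) with vehicle, -0.53 (SE 0.14, edgeR adjusted p = 0.00752) with LXA4 and -0.46 (SE 0.14, edgeR adjusted p = 0.0608) with benzo-LXA4. Its average, -0.50 (SE 0.08, edgeR adjusted p = 2.41e-05), was the next largest after Pdk4 among the called genes.

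Hsd17b4 encodes the other bifunctional enzyme, which handles branched chains. Hsd17b4 had 165 to 187 CPM (median 171) in diabetic vehicle libraries, against 161 to 227 CPM (median 208) in nondiabetic vehicle libraries. Hsd17b4 under LXA4 had 133 to 185 CPM (median 171) in diabetic libraries, against 184 to 207 CPM (median 199) in nondiabetic libraries. Hsd17b4 under benzo-LXA4 had 158 to 189 CPM (median 167) in diabetic libraries, against 166 to 216 CPM (median 175) in nondiabetic libraries. The ranges of Hsd17b4 overlapped in all pairs, and its average difference was -0.18 (edgeR adjusted p = 0.00329). Acaa1b (chr9:119148023-119157093) is a peroxisomal thiolase that shares 39.6% of its 50-base words with other genes, mainly its near copy Acaa1a, so its counts are uncertain. Acaa1b had 131 to 160.2 CPM (median 139.7) in diabetic vehicle libraries, against 147 to 354 CPM (median 229) in nondiabetic vehicle libraries. Acaa1b under LXA4 had 115 to 337 CPM (median 197) in diabetic libraries, against 149.6 to 265 CPM (median 165) in nondiabetic libraries. Acaa1b under benzo-LXA4 had 109 to 184 CPM (median 162) in diabetic libraries, against 143 to 222 CPM (median 179) in nondiabetic libraries. Diabetic vehicle libraries were narrow and low, while nondiabetic vehicle and diabetic LXA4 libraries were spread widely. The log2 difference of Acaa1b was -0.76 (SE 0.21, edgeR adjusted p = 0.0225) with vehicle, 0.23 (edgeR adjusted p = 0.424) with LXA4, -0.22 (edgeR adjusted p = 0.647) with benzo-LXA4 and -0.25 (edgeR adjusted p = 0.0952) in the average. Without the 2 libraries rich in ribosomal sequence, the vehicle difference of Acaa1b was -0.62 (edgeR adjusted p = 0.0370). Acaa1a, the paralog, had -0.47 (edgeR adjusted p = 0.198) with vehicle. Its highest values were 163 CPM in diabetic LXA4 replicate 6 and 145 CPM in nondiabetic vehicle replicate 3, the same 2 libraries. Pex11a, which promotes peroxisome division, averaged -0.17 (edgeR adjusted p = 0.0566).

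Slc27a2 (chr2:126552407-126588243) was by far the most abundant gene of the list. It encodes FATP2, which takes up fatty acids and activates very long chains. Slc27a2 had 1949 to 2697 CPM (median 2394) in diabetic vehicle libraries, against 2887 to 4384 CPM (median 3373) in nondiabetic vehicle libraries. Slc27a2 under LXA4 had 1998 to 4202 CPM (median 2665) in diabetic libraries, against 3169.8 to 3654 CPM (median 3362) in nondiabetic libraries. Slc27a2 under benzo-LXA4 had 2128 to 2941 CPM (median 2690.5) in diabetic libraries, against 2660.4 to 3279 CPM (median 2926) in nondiabetic libraries. Every diabetic vehicle library lay below every nondiabetic vehicle library, and the highest diabetic LXA4 value was that of replicate 6, the library rich in ribosomal sequence. The log2 difference of Slc27a2 was -0.55 (SE 0.13, edgeR adjusted p = 0.00794) with vehicle, -0.27 (edgeR adjusted p = 0.105) with LXA4, -0.19 (edgeR adjusted p = 0.458) with benzo-LXA4 and -0.34 (SE 0.07, edgeR adjusted p = 0.000564) in the average. Per kilobase of exon, its mean over all libraries was 779 CPM, against 172 CPM per kilobase for Ehhadh, 110 for Acadm and 6.67 for Acot1, the lowest of the 38. Plin2, a coat protein of lipid droplets, averaged -0.27 (edgeR adjusted p = 0.0516), and Fabp3, a fatty acid binding protein, averaged -0.10 (edgeR adjusted p = 0.441).

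The thioesterases, which release free fatty acids from acyl-CoA, had 0 of 3 genes called. In the average 16.6% of all genes were called lower and 18.8% higher, so 0 of 3 is no result about these genes. Acot12, which hydrolyses acetyl-CoA, averaged -0.20 (edgeR adjusted p = 0.0666). Acot1 and Acot2 are related genes that share 50-base words with each other and with other genes of the family (19.2% of the words of Acot1 and 27.7% of those of Acot2 occur in some other gene), and averaged 0.04 (edgeR adjusted p = 0.839) and -0.06 (edgeR adjusted p = 0.657). Vnn1, a pantetheinase and PPAR-alpha target, averaged -0.17 (edgeR adjusted p = 0.209).

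Pdk4 (pyruvate dehydrogenase kinase 4) turns down the use of glucose when fatty acids are burned. Pdk4 had 16.5 to 61.2 CPM (median 24.2) in diabetic vehicle libraries, against 15.2 to 115 CPM (median 48.4) in nondiabetic vehicle libraries. Pdk4 under LXA4 had 35.2 to 163 CPM (median 48.3) in diabetic libraries, against 46.0 to 135 CPM (median 70.5) in nondiabetic libraries. Pdk4 under benzo-LXA4 had 29.3 to 39.8 CPM (median 32.6) in diabetic libraries, against 9.38 to 315 CPM (median 58.5) in nondiabetic libraries. The spread within groups was wide and the ranges overlapped in every pair. Pdk4 had the largest average difference of the 38 genes, -0.96 (SE 0.31, edgeR adjusted p = 0.0159), and was not called within any treatment, with -0.93 (edgeR adjusted p = 0.332) for vehicle and -1.67 (edgeR adjusted p = 0.0778) for benzo-LXA4. The benzo-LXA4 value includes the nondiabetic library with adipocyte transcripts, at 315 CPM. Without the 3 libraries that stand apart the average was -0.75 (edgeR adjusted p = 0.0334). With single libraries left out it ran from -1.14 to -0.71, with an edgeR adjusted p of up to 0.0484. Angptl4, a secreted inhibitor of lipoprotein lipase, spread in a similar way. Angptl4 had 22.2 to 64.2 CPM (median 30.5) in diabetic vehicle libraries, against 22.8 to 105 CPM (median 46.7) in nondiabetic vehicle libraries. Angptl4 under LXA4 had 30.0 to 107 CPM (median 57.9) in diabetic libraries, against 40.4 to 116 CPM (median 66.7) in nondiabetic libraries. Angptl4 under benzo-LXA4 had 30.8 to 51.4 CPM (median 41.9) in diabetic libraries, against 12.8 to 147 CPM (median 57.7) in nondiabetic libraries. Its average difference was -0.52 (SE 0.22, edgeR adjusted p = 0.0694), which was not called.

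Cyp4a10 and Cyp4a14, the omega-hydroxylases that are classic PPAR-alpha targets of rodents, were not called in any comparison. Cyp4a14 ran from 6.72 to 955 CPM, both in nondiabetic benzo-LXA4 libraries. The highest Cyp4a10 value, 681 CPM, was in the same nondiabetic benzo-LXA4 replicate 3, where Pdk4 had 9.38 and Angptl4 12.8 CPM, the lowest of all libraries for both genes. In diabetic vehicle replicate 4, Cyp4a10 had 471 and Cyp4a14 361 CPM, each the highest of its group. The 95% interval of the average diabetes difference was -1.18 to 0.80 for Cyp4a14 and -0.50 to 0.43 for Cyp4a10, so the interval of Cyp4a14 reaches past a log2 difference of -1. Cyp4a10 shares 29.8% of its 50-base words with related genes such as Cyp4a32 and Cyp4a31.

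**Figure D3:**
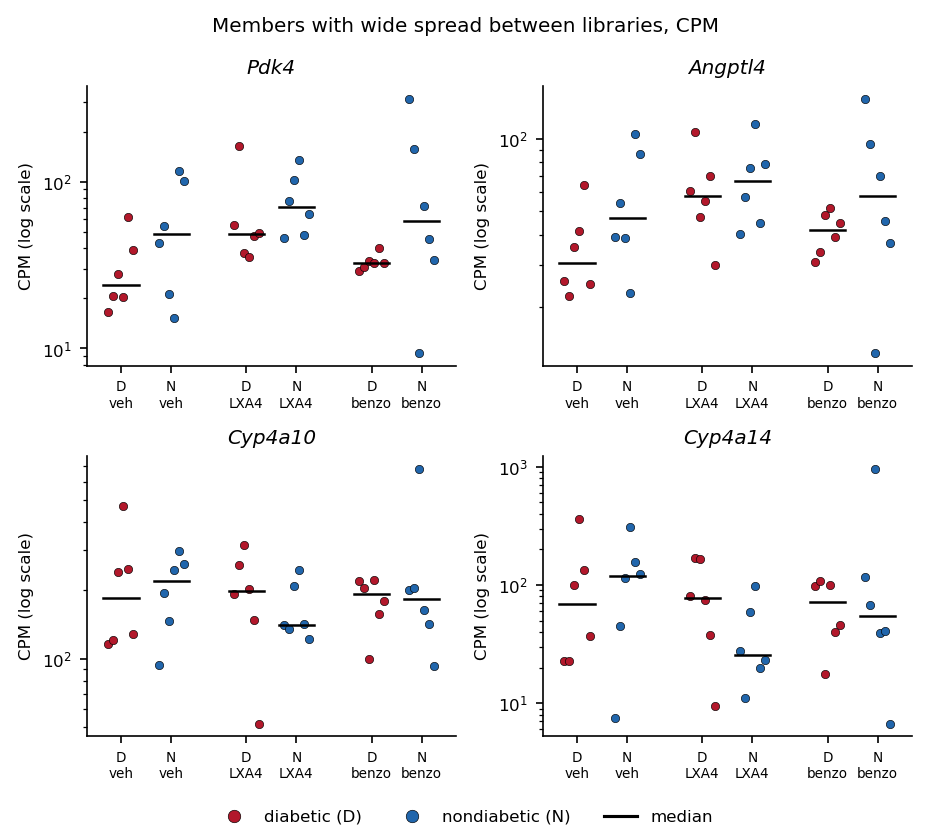
CPM on a log axis in each library for Pdk4, Angptl4, Cyp4a10 and Cyp4a14, with diabetic (D) beside nondiabetic (N) libraries of each treatment and bars at the medians. Single libraries stand far from their group, such as nondiabetic benzo-LXA4 replicate 3 with 955 CPM of Cyp4a14 and 9.38 CPM of Pdk4.

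The regulators themselves were not called. Ppara encodes PPAR-alpha. Ppara had 140.3 to 281 CPM (median 167) in diabetic vehicle libraries, against 131 to 252 CPM (median 192) in nondiabetic vehicle libraries. Ppara under LXA4 had 195 to 267 CPM (median 225) in diabetic libraries, against 159 to 215 CPM (median 197) in nondiabetic libraries. Ppara under benzo-LXA4 had 181 to 232 CPM (median 204) in diabetic libraries, against 143 to 286 CPM (median 193) in nondiabetic libraries. All pairs of ranges overlapped. Its average difference was 0.06 (SE 0.09, edgeR adjusted p = 0.641), with a 95% interval of -0.13 to 0.25. Ppargc1a encodes the coactivator PGC-1 alpha. Ppargc1a had 197 to 349 CPM (median 244) in diabetic vehicle libraries, against 181 to 289 CPM (median 222) in nondiabetic vehicle libraries. Ppargc1a under LXA4 had 121 to 272 CPM (median 254) in diabetic libraries, against 195 to 270.2 CPM (median 219) in nondiabetic libraries. Ppargc1a under benzo-LXA4 had 189 to 306 CPM (median 264) in diabetic libraries, against 236 to 316 CPM (median 269) in nondiabetic libraries. These ranges overlapped too, and the average difference was 0.03 (SE 0.09, edgeR adjusted p = 0.802), with an interval of -0.15 to 0.21. A missed threshold does not show equal levels, and the intervals give the differences these data leave possible on the log2 scale.

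Single libraries decided many of the calls within treatments. Among vehicle mice, Slc27a2 kept its call in each of the 12 fits that left out 1 library. It was the 1 gene called without diabetic vehicle replicate 5 or without nondiabetic vehicle replicate 6. With it, 2 genes were called in 3 of these fits, Acaa1b being the other without diabetic vehicle replicate 3 or nondiabetic vehicle replicate 5, and Ehhadh without nondiabetic vehicle replicate 3. Without diabetic vehicle replicate 4, 3 genes were called (Cpt2, Ehhadh and Slc27a2). Without nondiabetic vehicle replicate 4, 10 were called, the 6 named above with Acads, Acadvl, Eci1 and Hsd17b4. The highest adjusted p with 1 library left out was 0.0756 for Acaa1b, 0.100 for Ehhadh, 0.0984 for Cpt2, 0.132 for Acadm and 0.142 for Hadh, which was also lost without diabetic vehicle replicate 6 or nondiabetic vehicle replicate 1. Fitted on the 12 vehicle libraries alone, 1 gene, Slc27a2, was called, and with the replicate number as a block 3 were, namely Ehhadh, Acaa1b and Slc27a2. Without the 3 libraries that stand apart 6 genes were called, of which Slc27a2, Acaa1b, Ehhadh and Cpt2 belong to the 6 called with all libraries and Decr2 and Eci1 do not. Acadm and Hadh (edgeR adjusted p = 0.0952) lost their calls there.

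Among LXA4 mice, Acadm, Acadvl, Echs1, Ehhadh, Etfa, Etfdh and Hadh kept their calls in all 12 fits that left out 1 library. Hsd17b4 was lost without diabetic LXA4 replicate 6 (adjusted p = 0.0566). Acads was lost without diabetic replicate 5 or nondiabetic replicate 3, with an adjusted p of up to 0.0676. Crot was lost without diabetic replicate 2, 5 or 6 or nondiabetic replicate 2 or 3, with up to 0.0785. Acadl was lost without diabetic replicate 4, 5 or 6 or nondiabetic replicate 2, 3, 4 or 5, with up to 0.0933. Without the 2 libraries rich in ribosomal sequence 10 genes were called, with Crot and Acadl lost and Slc27a2 gained, and without the 3 libraries that stand apart 12 were, the 11 with Slc27a2. Among benzo-LXA4 mice Acadm was called with all 6 libraries a group and lost its call without any 1 of 11 of the 12, with an adjusted p of up to 0.106. Without nondiabetic benzo-LXA4 replicate 3 it was kept and Slc25a20 and Pdk4 were called as well. Without the 3 libraries that stand apart 3 genes were called there, Acadm, Acadl and Ehhadh.

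In the average over treatments, 16 of the 18 genes kept their calls in all 36 fits that left out 1 library. Crat was lost without diabetic vehicle replicate 3 or 5, diabetic benzo-LXA4 replicate 3, nondiabetic vehicle replicate 5 or 6, nondiabetic LXA4 replicate 4 or nondiabetic benzo-LXA4 replicate 1, with an adjusted p of up to 0.0652. Decr2 was lost in 17 of the 36 fits, with up to 0.0808. These were the fits without diabetic vehicle replicate 3, 5 or 6, diabetic LXA4 replicate 1, 3, 4 or 5, diabetic benzo-LXA4 replicate 1, 2, 3, 5 or 6, nondiabetic vehicle replicate 5 or 6, nondiabetic LXA4 replicate 4 and nondiabetic benzo-LXA4 replicate 1 or 5. Without the 3 libraries that stand apart 20 genes were called lower and 0 higher, with Crat lost and Hadhb, Acaa1a and Acot12 gained. The number of all genes called in that fit is not given here, so these gains are not set against it.

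LXA4 and benzo-LXA4 were each compared with vehicle within diabetic and within nondiabetic mice, and these comparisons share their vehicle libraries. By edgeR, 0 of 38 genes were called for LXA4 in diabetic mice, where 0.356% of all genes were called. For benzo-LXA4 in diabetic mice and for either compound in nondiabetic mice, 0 of 38 genes and 0% of all genes were called. At an unadjusted p under 0.05, 6 genes passed for LXA4 and 3 for benzo-LXA4 in diabetic mice, and 0 and 0 in nondiabetic mice. Of all 15726 genes, 2468, 891, 967 and 452 passed in the same order. The counts of the list are near or below that general rate and are no result about it. DESeq2 and voom also called 0 of the 38 in these 4 comparisons. The lowest adjusted p of the list was 0.180, 0.770, 0.829 and 1.000 in the same order.

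Among diabetic mice, Acaa1b differed from vehicle by 0.58 (SE 0.21, edgeR adjusted p = 0.188) with LXA4 and by 0.14 (SE 0.20, edgeR adjusted p = 1.000) with benzo-LXA4. Fabp3 differed by -0.49 (SE 0.17, edgeR adjusted p = 0.180) with LXA4 and by -0.39 (SE 0.16, edgeR adjusted p = 0.770) with benzo-LXA4. Cpt1a differed by 0.23 (edgeR adjusted p = 0.256) and 0.20 (edgeR adjusted p = 0.869), and Ppara by 0.32 (edgeR adjusted p = 0.318) and 0.17 (edgeR adjusted p = 1.000), LXA4 before benzo-LXA4. The doses of the compounds differ, so these values stand side by side without a test. Over the 38 genes the LXA4 differences in diabetic mice ran from -0.49 to 1.07, so these 4 genes do not include the largest. Median CPM in diabetic mice was 48.3 with LXA4 against 24.2 with vehicle for Pdk4, and 57.9 against 30.5 for Angptl4. Neither was called. The median 95% half-width was 0.287 for LXA4 in diabetic mice on the log2 scale and is an unadjusted width, so it describes the precision for a typical gene of the list and not the smallest difference the adjusted test can call.

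The difference between the diabetes effect under each compound and that under vehicle was tested as an interaction. It was called by edgeR for 0 of 38 genes for LXA4, where 0.248% of all genes were called, and for 0 of 38 for benzo-LXA4, where 0% were. At an unadjusted p under 0.05, 3 genes passed for LXA4 and 1 for benzo-LXA4. Of all 15726 genes, 2592 and 673 passed, so the list passed at a lower rate than all genes in both. The lowest adjusted p was that of Acaa1b for LXA4, with a difference of 0.99 (SE 0.29, edgeR adjusted p = 0.118). The highest diabetic LXA4 value of Acaa1b, 337 CPM, was in replicate 6. Its highest nondiabetic vehicle value, 354 CPM, was in replicate 3. These are the 2 libraries rich in ribosomal sequence, and the size of this difference without them is not given here. With any 1 of the 24 libraries left out, 0 of 38 genes were called for this interaction by edgeR. DESeq2 called 1 gene for LXA4, Acaa1b, and voom called 1, Cpt1a. Both tools called 0 for benzo-LXA4. The different numbers of genes called with vehicle, LXA4 and benzo-LXA4 are thus not differences shown by a test, apart from these calls, each made by 1 tool only.

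**Figure D4:**
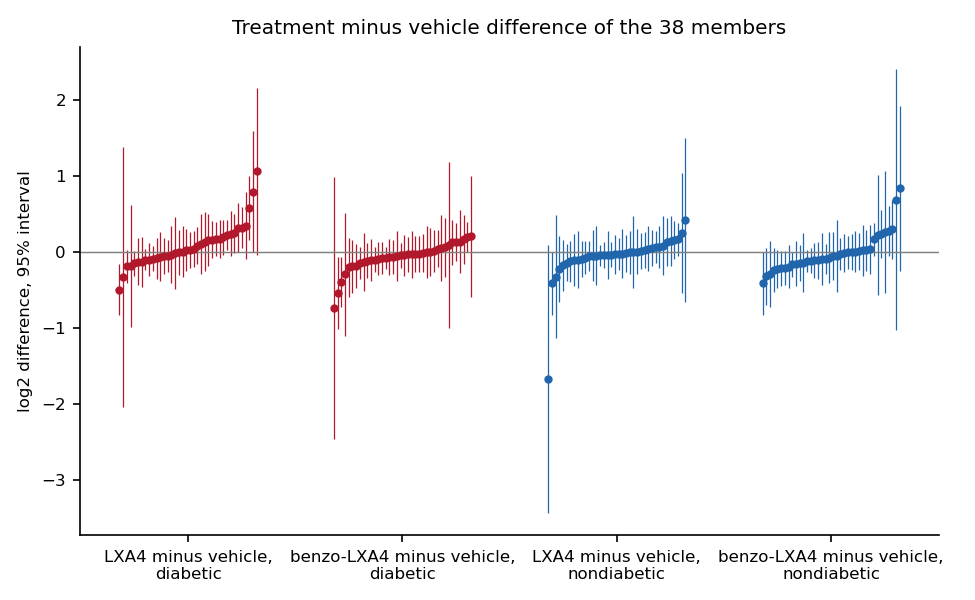
Log2 difference of each of the 38 genes with its 95% interval, compound minus vehicle, sorted within each of the 4 comparisons (diabetic mice in red, nondiabetic mice in blue). None was called by edgeR; the medians are 0.03, -0.04, -0.02 and -0.06 from left to right, and the widest intervals belong to Cyp4a14.

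In some libraries nearly all of the 38 genes lay on one side of their mean. Nondiabetic vehicle replicates 5 and 6 each had 37 of 38 genes above their mean over all 36 libraries, while nondiabetic vehicle replicate 4 had 6. In diabetic libraries 3 to 31 genes lay above their own mean (median 11), against 6 to 37 (median 26) in nondiabetic libraries. The median deviation of the list was below 0 in 14 of 18 diabetic libraries and in 5 of 18 nondiabetic libraries. The list's share of all counts was 0.418% to 0.876% in diabetic libraries, against 0.834% to 1.07% in nondiabetic libraries. The lowest share, 0.418%, belongs to diabetic LXA4 replicate 6, whose counts fall largely on ribosomal sequence.

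Markers of the proximal tubule also had lower summed levels in diabetic libraries. The 28 markers summed to 18834 to 36022 CPM (median 29891) in diabetic libraries, against 28197 to 45846 CPM (median 39926) in nondiabetic libraries. Single libraries followed the list in some cases and not in others. Nondiabetic vehicle replicates 5 and 6, each with 37 genes above their mean, had 44983 and 45508 CPM of the markers. Nondiabetic vehicle replicate 4, with 6 genes above, had 28197 CPM. Diabetic vehicle replicate 4 had 20 of the 38 genes above their mean, the most of its group, and 22569 CPM of the markers, while replicate 1 had 6 genes above and 34238 CPM. In the average over treatments 20 of the 28 markers were called lower and 0 higher (all genes: 16.6% lower, 18.8% higher), with a median log2 difference of -0.40, against -0.19 for the 38 genes. Without the 3 libraries that stand apart 24 were called lower, a gain not set against the number of all genes called in that fit. With vehicle, LXA4 and benzo-LXA4 the numbers called lower were 4, 17 and 1, where 2.16%, 12.3% and 1.25% of all genes were. In bulk tissue, fewer cells of a type and less RNA per cell cannot be told apart, and the part of proximal tubule content in the differences of the list was not tested. Of 8 myeloid and T cell markers 3 were called higher in the average, and of 6 podocyte markers 3. Of 10 markers of the loop of Henle and distal tubule 2 were called higher and 1 lower, of 7 endothelial markers 1 and 1, and of 9 collecting duct markers 0 and 0. The counts for the loop of Henle and distal tubule, the endothelium and the collecting duct are near or below the shares over all genes, 18.8% higher and 16.6% lower, and are no result about these cells. Of 8 adipocyte markers 4 were called lower in the average and 7 among benzo-LXA4 mice, with the high library in the nondiabetic group. That library had 150.2 CPM of Plin2 and 315 CPM of Pdk4, the highest of the 36 for both. It was also the highest of the 36 for Slc25a20, Crat, Acadl, Hadha, Hadhb, Acaa2, Eci1, Etfdh, Angptl4 and Ppara. Ucp1, one of the adipocyte markers, had 122 CPM there and at most 11.4 CPM elsewhere. The part of adipocyte content in the differences of the list was not tested.

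**Figure D5:**
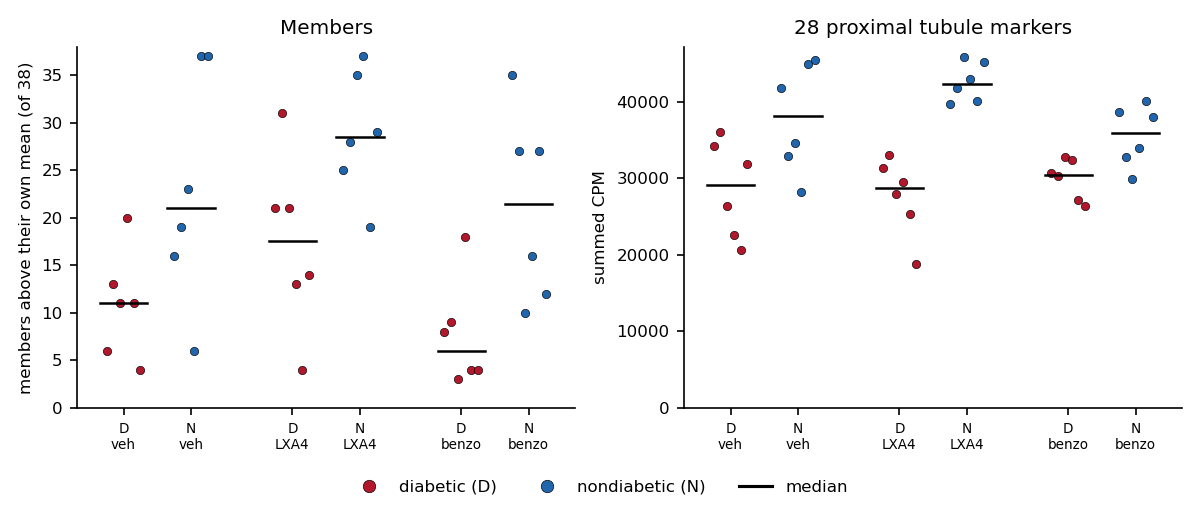
Left, number of the 38 genes above their own mean over 36 libraries, and right, summed CPM of 28 proximal tubule markers, in each diabetic (D) and nondiabetic (N) library by treatment, with bars at medians. Both measures have lower medians in diabetic than in nondiabetic libraries under each treatment, and the ranges of diabetic and nondiabetic libraries overlap in each pair except the marker sums under LXA4, where every diabetic library is below every nondiabetic one.

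Other genes of the pathway were taken from a list of 80, of which 75 were in the table. In the average over treatments 29 of the 75 were called lower and 4 higher, where 16.6% of all genes were called lower and 18.8% higher, with a median log2 difference of -0.19. Among vehicle mice 7 were called lower and 1 higher (all genes: 2.16% and 3.44%). Among LXA4 mice these counts were 19 and 6 (all genes: 12.3% and 15.4%), and among benzo-LXA4 mice 5 and 1 (all genes: 1.25% and 2.81%). Without the 3 libraries that stand apart the average gave 37 lower and 9 higher, and the comparison among vehicle mice 11 lower and 3 higher. Calls thus rose in both directions. The number of all genes called in that fit is not given here, so these gains are not set against it.

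Among vehicle mice the 7 were further dehydrogenases (Acad9 -0.30 (edgeR adjusted p = 0.0480), Acad10 -0.41 (edgeR adjusted p = 0.0101) and Acad12 -0.42 (edgeR adjusted p = 0.000202)), Ech1, Amacr, Cyp4b1 and Rxrb. Cyp4b1, a cytochrome of the CYP4 family, had the largest difference with -1.01 (edgeR adjusted p = 0.0143), and Amacr, a racemase for branched chains, had -0.84 (edgeR adjusted p = 0.0293). Ech1, an isomerase for dienoyl-CoA, had -0.39 (edgeR adjusted p = 0.0404). Acad9 and Amacr were no longer called among vehicle mice without the 3 libraries that stand apart. Rxrb, one of the receptors that pair with PPAR-alpha, had -0.34 (edgeR adjusted p = 0.0215). Cpt1c, the brain-type relative of Cpt1a, was the gene called higher, with 0.83 (edgeR adjusted p = 0.0119) among vehicle mice and 0.91 (edgeR adjusted p = 4.73e-07) in the average. Its level was low, at 1.85 to 3.29 CPM in diabetic vehicle libraries.

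In the average, ketone body and acetyl-CoA genes were among those called lower, with Oxct1 at -0.33 (edgeR adjusted p = 9.56e-07), Bdh1 at -0.35 (edgeR adjusted p = 0.000283) and Acat1 at -0.40 (edgeR adjusted p = 0.000768). Peroxisomal genes called lower included the importer Abcd3 at -0.33 (edgeR adjusted p = 0.000414), Pex13 at -0.20 (edgeR adjusted p = 0.00446), Pex19 at -0.23 (edgeR adjusted p = 0.00119), Amacr at -0.59 (edgeR adjusted p = 0.00102) and Ech1 at -0.38 (edgeR adjusted p = 4.06e-05). Cyp4a12a, an omega-hydroxylase that is male-biased in mouse kidney, averaged -1.04 (edgeR adjusted p = 0.00244), Cyp4b1 -0.93 (edgeR adjusted p = 1.26e-05), Aldh3a2 -0.40 (edgeR adjusted p = 0.000179) and Ephx2 -0.32 (edgeR adjusted p = 0.00144). The medium-chain synthetases of the kidney followed with Acsm1 at -0.41 (edgeR adjusted p = 0.00843), Acsm2 at -0.47 (edgeR adjusted p = 0.00199) and Acsm3 at -0.75 (edgeR adjusted p = 0.000737), of which Acsm2 also stands in the list of proximal tubule markers.

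Uptake genes called lower were Cd36 at -0.47 (edgeR adjusted p = 0.0123) and the carnitine transporter Slc22a5 at -0.27 (edgeR adjusted p = 0.00608). Also called lower in the average were Acad9 at -0.27, Acad10 at -0.17, Acad12 at -0.30, Acsl3 at -0.28, Acot13 at -0.19, Gpd1 at -0.36, Rxrb at -0.21, Ncor1 at -0.21 and Med1 at -0.09. Cidea (-3.46) and Fabp4 (-0.91) were also called lower, with high values in the nondiabetic library that holds adipocyte transcripts, and Fabp4 lost its call without the 3 libraries that stand apart. Cidea was near the floor, with 0 to 0.52 CPM in diabetic vehicle libraries. Besides Cpt1c, the genes called higher were the carnitine transporter Slc22a21 at 0.40 (edgeR adjusted p = 0.000315), Hacl1, a peroxisomal lyase of alpha-oxidation, at 0.37 (edgeR adjusted p = 0.0277), and Lpin1, a phosphatidate phosphatase that also coactivates PPAR-alpha, at 0.28 (edgeR adjusted p = 0.0184).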

How the data were processed

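The deposited table holds raw counts per gene for 36 libraries, with symbols from the authors' row names. Directional libraries were made from 200 ng of RNA after removal of ribosomal RNA, per the labels' protocols. Per the submitters' processing notes, bcl2fastq 2.17.1.14, STAR and featureCounts were used with the GRCm38 build. The sources used here give neither their other versions nor the strand setting nor how reads matching several places were counted. The lowest gene total was 370 counts.

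edgeR 4.0.16 in R 4.3.3 (glmQLFit and glmQLFTest, TMM factors, filterByExpr) was run on the counts in 1 fit with a mean for each of the 6 groups. P-values were adjusted by Benjamini-Hochberg over 15726 genes, with a threshold of 0.05. CPM values are relative to the TMM-scaled total. Depth enters through the count model, and intervals are 95%. On simulated counts for 15730 genes in the vehicle comparison, 25 of 50 genes changed by 0.5 on the log2 scale were recovered, 40 of 50 at 1, 45 of 50 at 1.5 and 50 of 50 at 2.

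Alternatives were RLE factors, no filter, a mean of at least 5 CPM, DESeq2 1.42.0, limma 3.58.1 voom with sample weights, a replicate block, only the groups compared, and leaving out libraries. Same-numbered libraries had correlations of 0.116 to 0.474, over 0.1 in 6 of 6 pairs, for benzo-LXA4 against vehicle in nondiabetic mice. The blocked fit also called 0 genes there. Only 2 of those 6 libraries correlated best with their own number, so the agreement was not particular to the number. For LXA4 against vehicle in nondiabetic mice 3 of 6 did, with correlations over 0.1 in 3 of 6 pairs. The other pairs of groups had correlations over 0.1 in at most 3 of 6. No 2 libraries were identical.

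Coordinates, exon lengths and shared 50-base words come from GENCODE M21 (GRCm38), and promoters from RefSeq. Each of the 38 genes could be named. Values in all groups are given for genes called in any comparison, the 5 largest differences among vehicle mice, Ppara and Ppargc1a, and other pathway genes are named when called with vehicle or in the average, except 1 that is counted but not reported by name here. Members and lists were chosen with earlier results of these data known.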

Additional observations from a re-analysis of the deposited data

Results flagged for a closer look

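Single libraries that stood apart within their group of 6 were looked for in 24 genes and 6 groups. The test compares the gap to the nearest library with the whole range of the group, and chance alone gives such a gap in about 1 in 20 groups. It was met in 15 of 144 combinations of gene and group. Cyp4a10 and Cyp4a14, which give 4 of the 15, were chosen after their values were seen, so the 15 are not to be set against that chance rate.

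In nondiabetic benzo-LXA4 replicate 1, which holds adipocyte transcripts, Crat had 151 CPM, Acadl 263 CPM, Acadvl 243 CPM, Eci1 70.0 CPM and Hsd17b4 216 CPM, each above the other 5 libraries. The summed adipocyte markers had 866 CPM in that library, and 55.0 CPM in diabetic vehicle replicate 3, the highest of its group. In diabetic LXA4 replicate 6, rich in ribosomal sequence, Acadl had 75.6 CPM and Ppargc1a 121 CPM, both the lowest of the group, and Slc27a2 had 4202 CPM, the highest.

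In diabetic vehicle replicate 4, Ppara had 281 CPM, Cyp4a10 471 CPM and Cyp4a14 361 CPM, the highest of the group. In nondiabetic benzo-LXA4 replicate 3, Cyp4a10 had 681 CPM and Cyp4a14 955 CPM, the highest of the group. Pdk4 had 163 CPM in diabetic LXA4 replicate 2, and Decr2 had 47.4 CPM in diabetic benzo-LXA4 replicate 4, again the highest values. No interaction with treatment was called by edgeR for any of the 38 genes.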

How the results depend on the processing

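The number of genes of the list called, 6 among vehicle mice, became 3 with a mean of at least 5 CPM, 16 with voom, 3 with the replicate block and 1 with only the groups compared. Leaving out single libraries gave 1 to 10 genes. Over all genes the 881 calls among vehicle mice became 2221 with voom and 342 with only the groups compared. The 1 gene among benzo-LXA4 mice became 0 with a mean of at least 5 CPM, 4 with DESeq2, 5 with voom, 0 with the replicate block and 5 with only the groups compared. There it became 7 without the 2 libraries rich in ribosomal sequence, 3 without these and the library with adipocyte transcripts, and 0 to 3 with single libraries left out. Over all genes the 638 calls among benzo-LXA4 mice became 2568 with voom and 305 with a mean of at least 5 CPM. The LXA4 interaction gave 1 gene with DESeq2 and 1 with voom in place of 0. The cause of these shifts was not tested. Counts among LXA4 mice stayed at 8 to 12 and those of the average at 16 to 25 in all settings run, 11 and 19 with the replicate block. The 4 comparisons of compound with vehicle and the benzo-LXA4 interaction stayed at 0 in all settings run. No log2 difference tracked for the named genes changed sign. Same-numbered libraries had correlations over 0.1 in 2, 1, 0, 2, 3 and 3 of 6 pairs in the 6 pairs of groups other than nondiabetic benzo-LXA4 against vehicle, so the replicate block is given there as an alternative that rests on a number alone. The block changed no other call count by over 1.5 times. The average could not be fitted on fewer groups, since it uses all 6. Over all genes, calls numbered 881 among vehicle mice, 638 among benzo-LXA4 mice and 5570 in the average, and ran over the settings from 342 to 2221, 305 to 2568 and 3881 to 8284. Calls among LXA4 mice numbered 4353 and ran from 2338 to 6954. For LXA4 against vehicle in diabetic mice the 56 genes became 1 to 231, for benzo-LXA4 the 0 became up to 105, and for the LXA4 interaction the 39 became 0 to 266. Depth limits the 2 shallowest libraries, with 8896193 and 10086698 counts.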
